A study of Mus musculus with 16 samples.

Results

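Ribosome biogenesis factors are the proteins that transcribe, modify, cut and assemble ribosomal RNA into ribosomal subunits without remaining part of the finished ribosome. They were measured in tumour cells enriched from mice bearing LLC1 tumours, which grow from a Lewis lung carcinoma line of the mouse. A list of 40 such genes was taken by symbol, with the requirement that a gene exceed the table's minimum by 1 log2 unit or more in 4 or more of 16 libraries. All 40 of 40 met it, each in 16 of 16 libraries, out of 24334 genes in the table and 15715 that met the same requirement. Values are variance-stabilised expression levels on a scale close to log2, and those of the 40 genes ran from 7.92 to 16.0, so every factor was well above the lowest value of 4.84. Levels are given per gene and are not compared between genes, because the scale is not per length.

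All 16 libraries came from LLC1 tumour-bearing mice treated for 16 days, and there were 4 libraries in each of 4 groups. Vehicle mice received DMSO. TMP195 mice received 50 mg/kg of TMP195, which blocks the class IIa group of histone deacetylases, and MYCi975 mice received 50 mg/kg of MYCi975, a compound that binds and inhibits MYC. Combo mice received both compounds, at doses that are not stated for the combination. The labels give no strain, sex or age of the mice, nor do they say whether each library of a group came from its own mouse, so p-values measure the spread between libraries, which may be partly technical. All tumours are of 1 cell line, and the values come from bulk RNA of an enriched population, in which fewer cells of a type and less RNA per cell cannot be told apart.

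Ribosome production begins in the nucleolus, where RNA polymerase I transcribes a long precursor of ribosomal RNA. Small nucleolar ribonucleoproteins (snoRNPs) modify that precursor, and separate sets of factors then fold, cut and export the small (40S) and large (60S) subunits. MYC, which binds DNA as a dimer with MAX, is known as an activator of this pathway at many of its steps, and enlarged nucleoli are a classical feature of fast-growing tumour cells. The 40 factors fall into 4 polymerase I factors, 6 snoRNP proteins, 13 small subunit factors, 14 large subunit factors and 3 proteins that act at several steps.

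The E-box CACGTG is the DNA sequence that the MYC and MAX dimer is best known to bind, so the promoters of the factors were searched for it. RefSeq promoters of the mouse build GRCm38.p6, from 250 bases before to 50 bases after the gene start, were matched by symbol for 35 of the 40 factors. The motif reads the same on both strands, and it was found in 7 of 35 factors (20.0%), against 1168 of 10235 tested genes with a promoter (11.4%) and 2187 of 27025 genes in the whole promoter table (8.09%). The windows that hold it are shown because they are the stretches of these promoters that carry the letters MYC is best known to bind. Each is printed 5′ to 3′ on the strand of the gene, with the E-box in capitals:
Nop2 (chr6:125131783-125131868, plus strand, site 60 bases before the gene start): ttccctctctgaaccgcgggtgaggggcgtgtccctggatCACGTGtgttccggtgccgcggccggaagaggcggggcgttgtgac
Utp4 (chr8:106893615-106893669, plus strand, site 15 bases after the gene start): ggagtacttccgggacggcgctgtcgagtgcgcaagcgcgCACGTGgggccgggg
Utp20 (chr10:88826765-88826794, minus strand, site 37 bases after the gene start): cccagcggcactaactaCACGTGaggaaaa
Pes1 (chr11:3963937-3964004, plus strand, site 2 bases after the gene start): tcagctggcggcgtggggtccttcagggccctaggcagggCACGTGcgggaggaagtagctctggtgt
Tsr1 (chr11:74898064-74898109, plus strand, site 24 bases after the gene start): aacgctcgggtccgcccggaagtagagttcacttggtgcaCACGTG
Rrn3 (chr16:13780449-13780529, plus strand, site 215 bases before the gene start): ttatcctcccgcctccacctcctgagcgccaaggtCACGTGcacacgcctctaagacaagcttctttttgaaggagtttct
Rrn3 (chr16:13780611-13780696, plus strand, site 48 bases before the gene start): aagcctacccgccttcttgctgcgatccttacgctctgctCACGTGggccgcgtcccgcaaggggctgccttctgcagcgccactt
Wdr43 (chr17:71616192-71616244, plus strand, site 17 bases after the gene start): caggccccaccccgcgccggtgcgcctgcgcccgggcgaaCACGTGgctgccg
Rrn3 holds 2 E-boxes and the other 6 genes hold 1 each. The related letters CACGCG, searched on both strands and with 0 overlaps with an E-box, were found in 8 of 35 factors (22.9%), against 19.7% of tested genes with a promoter. A match is a description of these letters and does not show that a factor binds there.

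Ribosome biogenesis factors were lower in Combo than in Vehicle on average, by a small amount. The median difference over the 40 genes was -0.16 on the log2 scale, which corresponds to 89.4% of the Vehicle level, beside -0.01 over all 15715 genes tested. The Combo mean was below the Vehicle mean for 38 of 40 factors, against 52.6% of all tested genes. After quantile normalisation the median of the factors was -0.12 with 35 of 40 below Vehicle (all genes 0.0007). After median centring it was -0.13 with 37 of 40 (all genes 0.018). Under a stricter filter on low values, 6658 of 11597 genes were below Vehicle, with a median of -0.03. For 8 of 40 factors, all 4 Combo libraries lay below all 4 Vehicle libraries, against 1.53% of all tested genes. No factor passed limma's test with Benjamini-Hochberg adjustment over all tested genes (the smallest adjusted p was 0.987), nor did any other gene (0.0% of 15715). At an unadjusted p under 0.05 there were 9 of 40 factors, each lower in Combo, against 1.92% of tested genes that were lower at that threshold. In all, 642 genes had an unadjusted p under 0.05 in this comparison, in either direction. The standard error of a difference was 0.13 at the median over the 40 factors, from 0.09 for Ddx21 to 0.32 for Pes1, and the median half-width of the 95% interval was 0.27. The interval included 0 for all but 9 of the 40 factors.

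**Figure D1:**
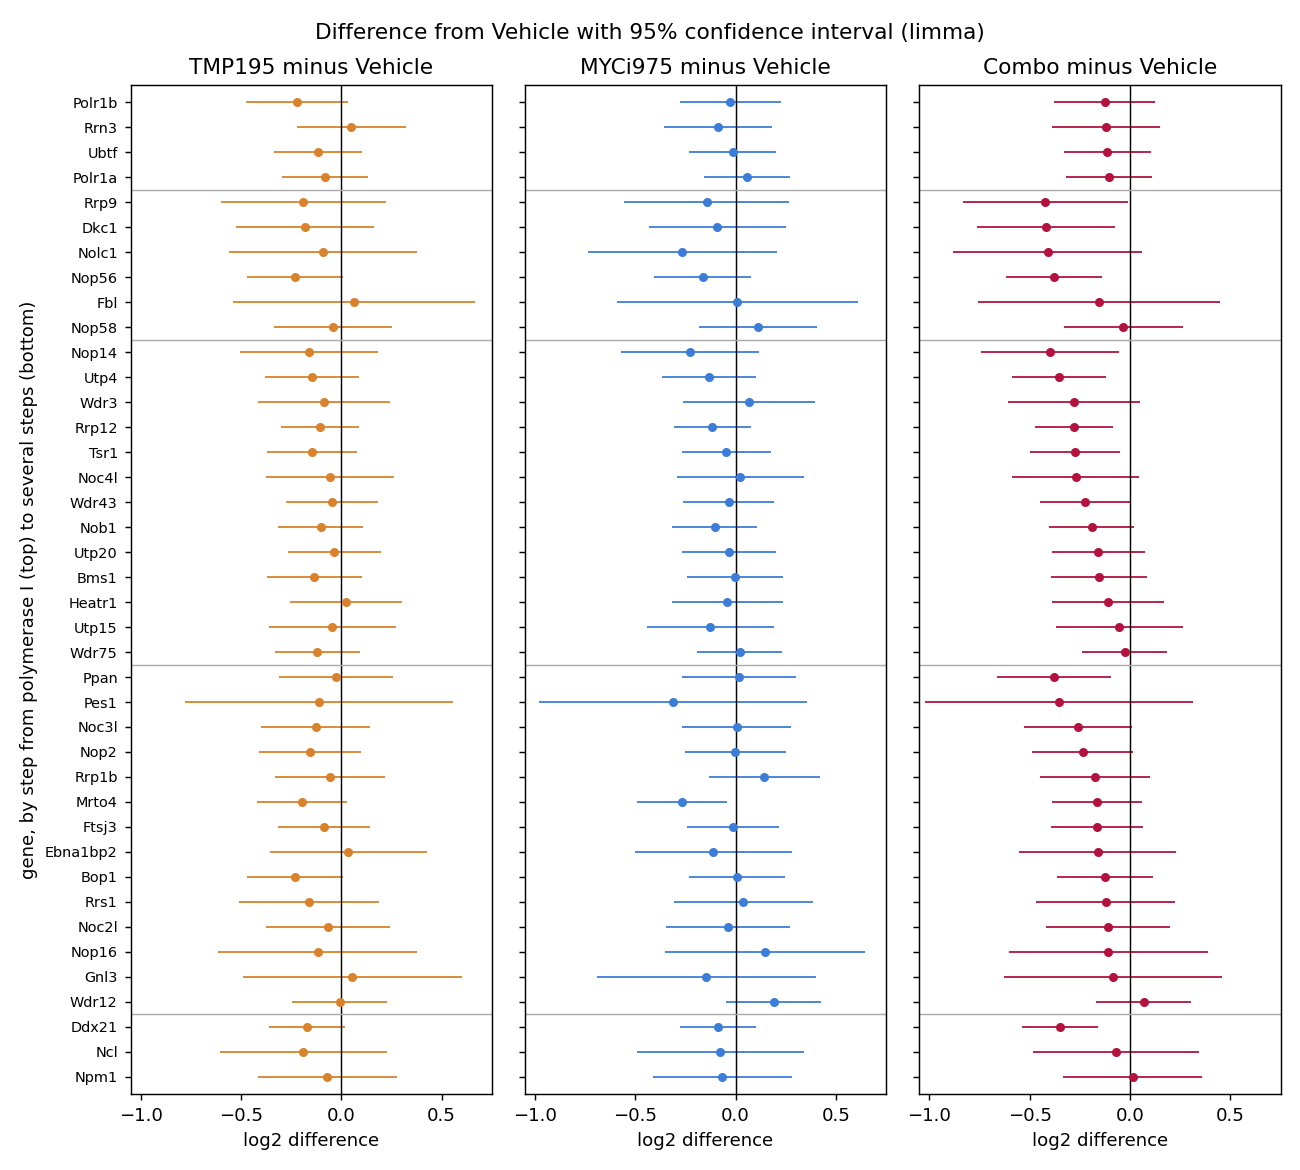
Log2 differences from Vehicle (x axis) of the 40 factors (y axis, grouped by step) for TMP195, MYCi975 and Combo, with points for the fitted difference of 4 against 4 libraries and bars for limma's 95% interval. In the Combo panel 38 of 40 points lie left of 0 and 9 intervals do not reach it, while in the MYCi975 panel 27 of 40 points lie left of 0.

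The 4 polymerase I factors differed least from Vehicle among the sets with one step, with a median of -0.12 in Combo. Polr1a and Polr1b, which form the catalytic core of the enzyme, differed by -0.10 and -0.13, the upstream binding factor Ubtf by -0.11 and the initiation factor Rrn3 by -0.12. Ubtf had values of 11.59, 11.48, 11.36 and 11.45 in Vehicle replicates 1 to 4 and 11.44, 11.32, 11.27 and 11.39 in Combo. Polr1b had 10.29, 10.46, 10.45 and 10.33 in Vehicle and 10.37, 10.12, 10.20 and 10.33 in Combo. The groups overlapped for both genes, and the standard errors of their differences were 0.10 and 0.12.

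The snoRNP proteins had a median difference of -0.39 in Combo, the largest of any step, and all 6 were below Vehicle. Nop56 (ENSMUSG00000027405.17), a scaffold protein of the box C/D particles that guide methylation of ribosomal RNA, had values of 12.39, 12.85, 12.44 and 12.66 in the Vehicle libraries. Its Combo values were 12.27, 12.20, 12.10 and 12.26, so that every Combo library lay below every Vehicle library. The difference was -0.38 (95% interval -0.62 to -0.14, limma's adjusted p = 0.987). Dkc1, the pseudouridine synthase of the box H/ACA particles, had 11.32, 11.56, 11.31 and 12.04 in Vehicle and 11.37, 11.00, 10.95 and 11.23 in Combo, a difference of -0.42 (SE 0.16). Combo replicate 1 lay inside the Vehicle range for this gene.

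Several of these differences rested in part on Vehicle replicate 4, which was the highest Vehicle library for Dkc1, Nolc1, Rrp9 and Fbl. Nolc1, the chaperone of snoRNP assembly also called Nopp140, had 11.37, 11.35, 11.37 and 12.31 in Vehicle and 11.29, 10.88, 11.32 and 11.27 in Combo. Its groups did not overlap, and the difference of -0.41 (SE 0.22) became -0.17 without Vehicle replicate 4. Rrp9, the protein specific to the U3 particle, went from -0.42 to -0.27 without that library, and Dkc1 from -0.42 to -0.26. Fbl, the methyltransferase fibrillarin, went from -0.15 to 0.10. Nop56 kept a value of -0.35. Nop58, the partner of Nop56 in the box C/D scaffold, differed by -0.03. The median over the 6 snoRNP genes was -0.22 without Vehicle replicate 4 and -0.24 without all 4 libraries numbered 4, with the latter chosen with results known.

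All 13 small subunit factors were below Vehicle in Combo, with a median difference of -0.22. Utp4 (ENSMUSG00000041438.9), part of the complex that binds the precursor as it is transcribed and a gene with an E-box 15 bases after its start, had 10.81, 10.98, 10.90 and 10.98 in Vehicle. In Combo it had 10.62, 10.44, 10.57 and 10.62, and the difference was -0.36 (95% interval -0.59 to -0.12, limma's adjusted p = 0.987). Rrp12 (ENSMUSG00000035049.5), which helps to export pre-ribosomal subunits from the nucleus, had the closest Combo values of the 40 factors (SD 0.02, n = 4), at 10.35, 10.32, 10.30 and 10.32. Its Vehicle values were 10.48, 10.61, 10.63 and 10.68, and the difference was -0.28 (95% interval -0.47 to -0.08, limma's adjusted p = 0.987). Neither gene had any overlap between the 2 groups.

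Tsr1, a late-acting factor of the 40S particle whose promoter also holds an E-box, had 11.42, 11.29, 11.31 and 11.28 in Vehicle and 11.17, 11.13, 10.93 and 10.98 in Combo, a difference of -0.27 (SE 0.11) without overlap. Utp20, a large scaffold protein with an E-box, had 12.46, 12.62, 12.59 and 12.60 in Vehicle and 12.42, 12.35, 12.44 and 12.44 in Combo. Its groups did not overlap either, although the difference was only -0.16 (SE 0.11), and the Combo libraries lay close together just under the lowest Vehicle library. The other 9 ranged from -0.40 for Nop14, which forms a module with Noc4l (-0.27), to -0.03 for Wdr75. Between them were Wdr3 (-0.28), Wdr43 (-0.22), the 18S endonuclease Nob1 (-0.19), the GTPase Bms1 (-0.15), Heatr1 (-0.11) and Utp15 (-0.05).

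Of the 14 large subunit factors, 13 were below Vehicle in Combo, with a median of -0.16. Ppan (ENSMUSG00000004100.13), an early-acting 60S factor, had 10.59, 10.52, 10.72 and 10.72 in Vehicle and 10.35, 10.17, 10.13 and 10.38 in Combo. The difference was -0.38 (95% interval -0.67 to -0.10, limma's adjusted p = 0.987), with no overlap between the groups. Noc3l, which forms a complex in early 60S particles, had 11.67, 11.81, 11.65 and 11.47 in Vehicle and 11.60, 11.36, 11.48 and 11.12 in Combo, a difference of -0.26 (SE 0.13). The members of the PeBoW complex, which is needed to mature the 60S subunit, differed in sign: Pes1 differed by -0.35 (SE 0.32), Bop1 by -0.13 and Wdr12 by 0.07 (SE 0.11). Pes1 had 11.76, 11.74, 11.99 and 13.40 in Vehicle, so that replicate 4 stood far above the rest, and without it the difference was 0.04.

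Wdr12 was the factor furthest above Vehicle in Combo. Its values were 11.55, 11.37, 11.40 and 11.22 in Vehicle and 11.55, 11.31, 11.54 and 11.41 in Combo, so the groups overlapped almost completely. The other large subunit factors ranged from -0.24 for the RNA methyltransferase Nop2 to -0.08 for nucleostemin (Gnl3). These were Rrp1b (-0.17), Mrto4, Ebna1bp2 and Ftsj3 (each -0.16), Rrs1 (-0.12), and Noc2l and Nop16 (each -0.11). Without Vehicle replicate 4, Ebna1bp2 was at 0.02, Nop16 at 0.08 and Gnl3 at -0.31.

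The 3 proteins that act at several steps differed from each other. Ddx21 (ENSMUSG00000020075.9), an RNA helicase that acts both on polymerase I transcription and on snoRNA placement, had the smallest p of all 40 factors. Its values were 12.77, 12.85, 12.84 and 12.94 in Vehicle and 12.62, 12.56, 12.35 and 12.48 in Combo, and the highest Combo library lay below the lowest Vehicle library. The means were 12.85 ± 0.07 and 12.50 ± 0.12 (SD, n = 4 each), and the difference was -0.35 (95% interval -0.54 to -0.16, limma's adjusted p = 0.987), or 78.6% of the Vehicle level. Nucleolin (Ncl) and nucleophosmin (Npm1), the abundant nucleolar chaperones, differed by -0.07 (SE 0.20) and 0.01 (SE 0.16). Npm1 had 15.96, 15.93, 15.74 and 15.57 in Vehicle and 15.86, 15.85, 15.77 and 15.78 in Combo, with all Combo libraries inside the Vehicle range. Ncl had 15.97, 15.73, 15.62 and 15.19 in Vehicle and 15.91, 15.45, 15.45 and 15.42 in Combo, and its difference was -0.22 without Vehicle replicate 4 but 0.03 after quantile normalisation. Npm1 has many processed pseudogene copies, among which reads could be divided by the quantification, so its value is uncertain.

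**Figure D2:**
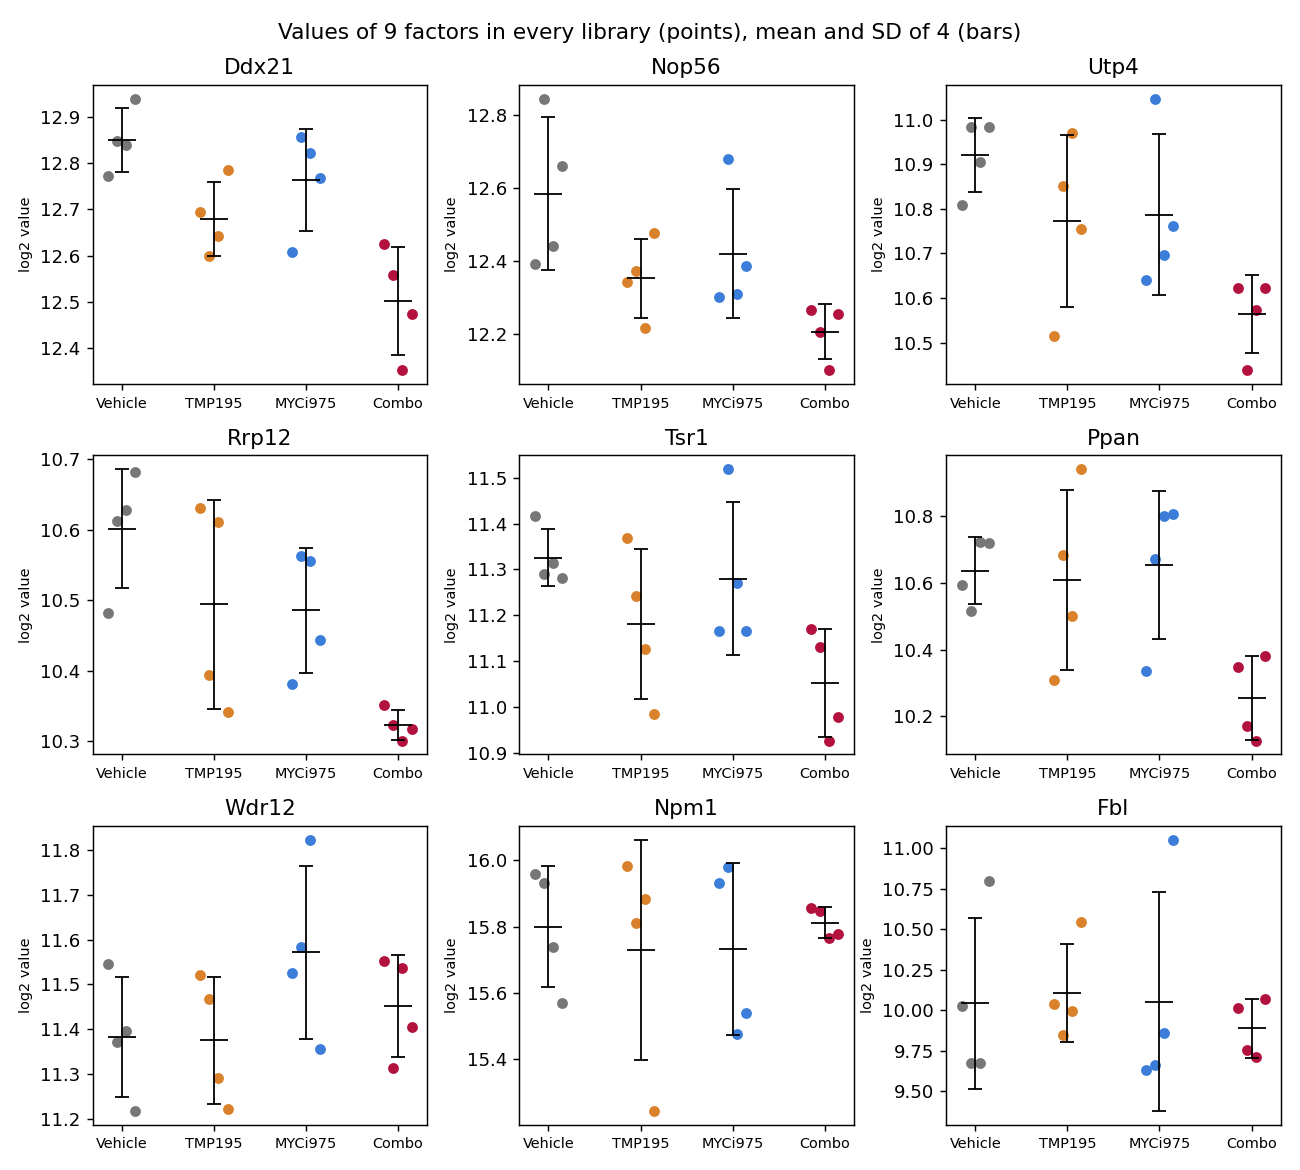
Log2 values (y axis) of 9 factors in each library (points) of the 4 groups (x axis), with bars for the mean and SD of 4. The Combo points of Ddx21, Nop56, Utp4, Rrp12, Tsr1 and Ppan lie below all Vehicle points, whereas those of Wdr12, Npm1 and Fbl overlap with Vehicle.

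TMP195 alone was associated with smaller differences of the same sign. The median over the 40 factors was -0.10, or 93.0% of the Vehicle level, and 35 of 40 were below Vehicle, against 53.7% of all tested genes. The median was -0.07 after quantile normalisation and -0.06 after median centring, with 32 and 31 of 40 below Vehicle. Under the stricter filter 6892 of 11597 genes were below Vehicle, with a median of -0.04. No factor passed the adjusted test (0.0% of tested genes did; the smallest adjusted p among the factors was 0.945), and no factor reached an unadjusted p under 0.05 on the lower side, which 2.44% of tested genes did, or on the higher side; 767 genes did in all. Bop1 had 9.99, 9.97, 10.06 and 10.09 in Vehicle and 9.84, 9.97, 9.72 and 9.66 in TMP195, a difference of -0.23 (SE 0.11). Nop56 had 12.34, 12.37, 12.22 and 12.48 in TMP195, a difference of -0.23 (SE 0.11), and Ddx21 had 12.69, 12.60, 12.64 and 12.78, a difference of -0.17 (SE 0.09). For each of these 3 genes TMP195 overlapped with Vehicle, and no factor was free of overlap on the lower side, against 1.4% of all tested genes.

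Fbl and Gnl3 differed most in the other direction in TMP195, by 0.06 each (SE 0.29 and 0.26). Fbl had 10.02, 9.68, 9.67 and 10.80 in Vehicle and 10.04, 9.85, 9.99 and 10.54 in TMP195. Gnl3 had 11.99, 11.81, 11.72 and 10.95 in Vehicle and 12.15, 11.61, 11.73 and 11.19 in TMP195. Replicate 4 was the highest library of both groups for Fbl and the lowest of both for Gnl3, and these spreads were larger than the differences.

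MYCi975 alone, the inhibitor of MYC, differed least from Vehicle. The median was -0.04, or 97.5% of the Vehicle level, and 27 of 40 factors were below Vehicle, against 52.9% of all tested genes. After quantile normalisation the median was 0.01 and 18 of 40 were below Vehicle, and without MYCi975 replicate 2 the median was -0.12. Under the stricter filter 6635 of 11597 genes were below Vehicle, with a median of -0.02. No factor passed the adjusted test (0.0% of tested genes did; the smallest adjusted p was 0.999), and 1 of 40 had an unadjusted p under 0.05 and was lower, against 1.51% of tested genes. In all, 476 genes had an unadjusted p under 0.05 in either direction. That factor was Mrto4, which holds the place of a stalk protein in maturing 60S particles. It had 10.15, 10.12, 9.95 and 9.86 in Vehicle and 9.80, 9.86, 9.60 and 9.74 in MYCi975, a difference of -0.27 (95% interval -0.49 to -0.04). The lowest Vehicle and the highest MYCi975 library were equal at this rounding.

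Wdr12 and Nop16 differed most in the other direction in MYCi975. Wdr12 had 11.53, 11.58, 11.82 and 11.36 in MYCi975, a difference of 0.19 (SE 0.11). Nop16 had 8.35, 8.38, 8.02 and 9.02 in Vehicle and 8.50, 8.38, 8.49 and 8.97 in MYCi975, a difference of 0.15 (SE 0.24). Nop56, next by p, had 12.30, 12.68, 12.31 and 12.39, a difference of -0.16 (SE 0.11) with replicate 2 inside the Vehicle range. None of the 40 factors was free of overlap on the lower side, against 0.706% of all tested genes.

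**Figure D3:**
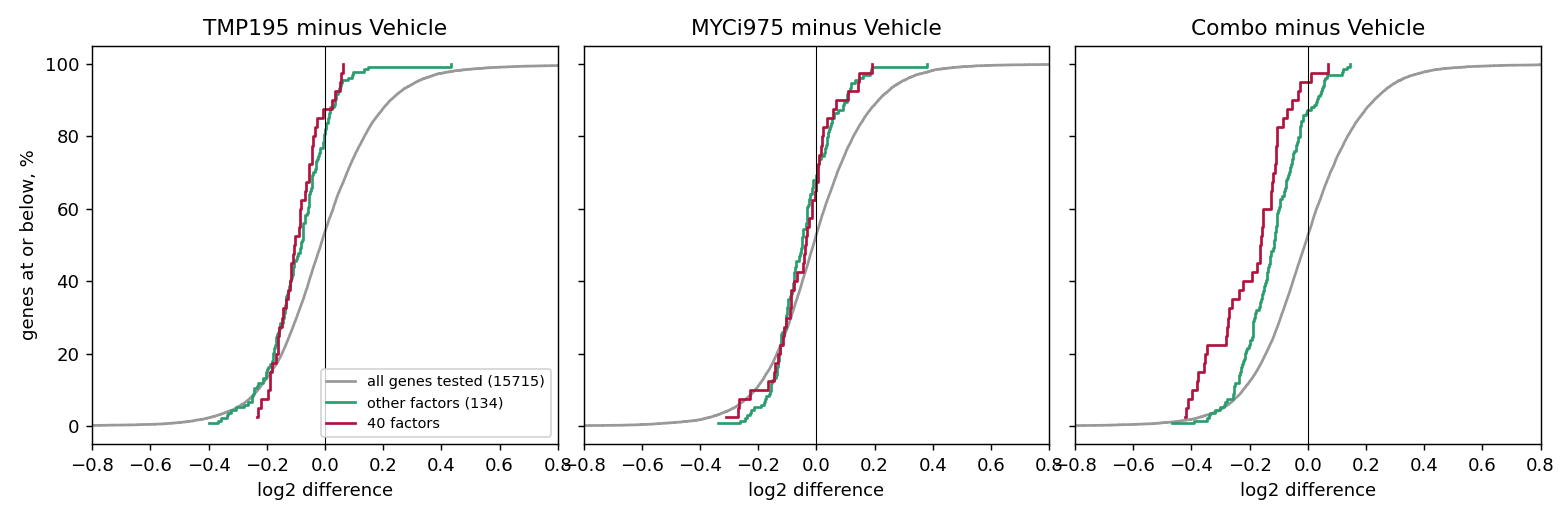
Cumulative share of genes (y axis, percent) with a log2 difference from Vehicle at or below the value on the x axis, for the 40 factors, the 134 other factors of the pathway and all 15715 tested genes, in TMP195, MYCi975 and Combo. The curve of the 40 factors is shifted left of all genes in Combo (medians -0.16 and -0.01) and in TMP195 (-0.10 and -0.01), and lies near them in MYCi975 (-0.04 and -0.01).

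The combination was then set against each single compound. These comparisons share the Combo libraries with each other and with the comparison against Vehicle, so their values are given side by side and not as separate support. Against MYCi975 the median over the 40 factors was -0.15 and 35 of 40 were lower in Combo, against 49.8% of all tested genes. At an unadjusted p under 0.05 there were 5 of 40, each lower, against 1.18% of tested genes, and 4 of 40 had no overlap, against 0.815%. These 5 became 2 without MYCi975 replicate 3 or Combo replicate 3, and 3 without MYCi975 replicate 2 or Combo replicate 2. They became 8 without MYCi975 replicate 4 and 9 without Combo replicate 1. The share of all genes in those fits is not given here, so the changed counts are a description. Against TMP195 the median was -0.13 and 29 of 40 were lower, against 49.3% of all tested genes. Without TMP195 replicate 1 that median was -0.07 and 24 of 40 were lower. There 1 of 40 had an unadjusted p under 0.05, against 2.84%, and none was free of overlap, against 1.62%. No factor passed the adjusted test of limma in either comparison (0.0% of tested genes did in each, and 365 and 837 genes had an unadjusted p under 0.05).

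Ppan had the smallest p of the factors in both, with Ddx21 next in each. It had 10.33, 10.67, 10.80 and 10.81 in MYCi975 and 10.31, 10.68, 10.50 and 10.94 in TMP195, beside 10.35, 10.17, 10.13 and 10.38 in Combo. The difference was -0.40 (SE 0.13) against MYCi975 and -0.35 (SE 0.13) against TMP195. Against TMP195, Ppan was the 1 factor of 40 with an unadjusted p under 0.05, near the 2.84% of tested genes lower at that threshold. Replicate 1 of each single compound lay within the Combo range, and the other libraries of both lay above it. Ddx21 was at 12.61, 12.86, 12.82 and 12.77 in MYCi975, and differed by -0.26 (SE 0.09) against MYCi975 and by -0.18 (SE 0.09) against TMP195. Rrp1b, a nucleolar protein of 60S assembly, had 10.51, 10.71, 10.90 and 10.57 in MYCi975 and 10.47, 10.31, 10.23 and 10.41 in Combo, a difference of -0.32 (SE 0.13) with no overlap. Utp4 had 10.52, 10.85, 10.97 and 10.75 in TMP195, and Combo differed from it by -0.21 (SE 0.11).

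The interaction compares Combo with the sum of the differences of the single compounds from Vehicle. Its median over the 40 factors was -0.08, beside 0.01 over all genes, and 27 of 40 were below 0, against 48.2% of all tested genes. After quantile normalisation and after median centring 32 of 40 were below 0. Single libraries moved it the other way: the median was -0.02 with 24 of 40 below 0 without MYCi975 replicate 2, -0.03 with 23 without Combo replicate 2, and -0.03 with 25 without TMP195 replicate 1. It was -0.05 without Vehicle replicate 1 (28 of 40) or TMP195 replicate 3 (29 of 40), and -0.12 without Combo replicate 1 (30 of 40). With the leukocyte mean as a covariate it was -0.03. No factor had an unadjusted p under 0.05, which 471 genes had (1.6% of tested genes below 0), and no factor or other gene passed the adjusted test (0.0%). The smallest p among the factors belonged to Mrto4, at 0.30 (SE 0.15), followed by Ppan at -0.37 (SE 0.19) and Rrp1b at -0.26 (SE 0.18). For Ppan the difference from Vehicle was -0.03 with TMP195, 0.02 with MYCi975 and -0.38 with both. Mrto4 differed by -0.19, -0.27 and -0.16, so that its 3 treated groups were all lower than Vehicle by like amounts. For both genes the interval of the interaction included 0.

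Across single libraries the 40 factors were not shifted evenly. The mean over the 40 genes was 11.29, 11.34, 11.27 and 11.40 in Vehicle replicates 1 to 4 and 11.27, 11.04, 11.08 and 11.13 in Combo. It was 11.29, 11.18, 11.22 and 11.23 in TMP195 and 11.21, 11.37, 11.27 and 11.26 in MYCi975. Combo replicates 2, 3 and 4 were thus the lowest of all 16 libraries, and Combo replicate 1 was level with the lowest Vehicle library, replicate 3, at this rounding. The median deviation of the factors from the Vehicle mean was -0.03, -0.28, -0.22 and -0.17 in Combo replicates 1 to 4, while that of all tested genes stayed between -0.02 and 0.00 in every library.

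**Figure D4:**
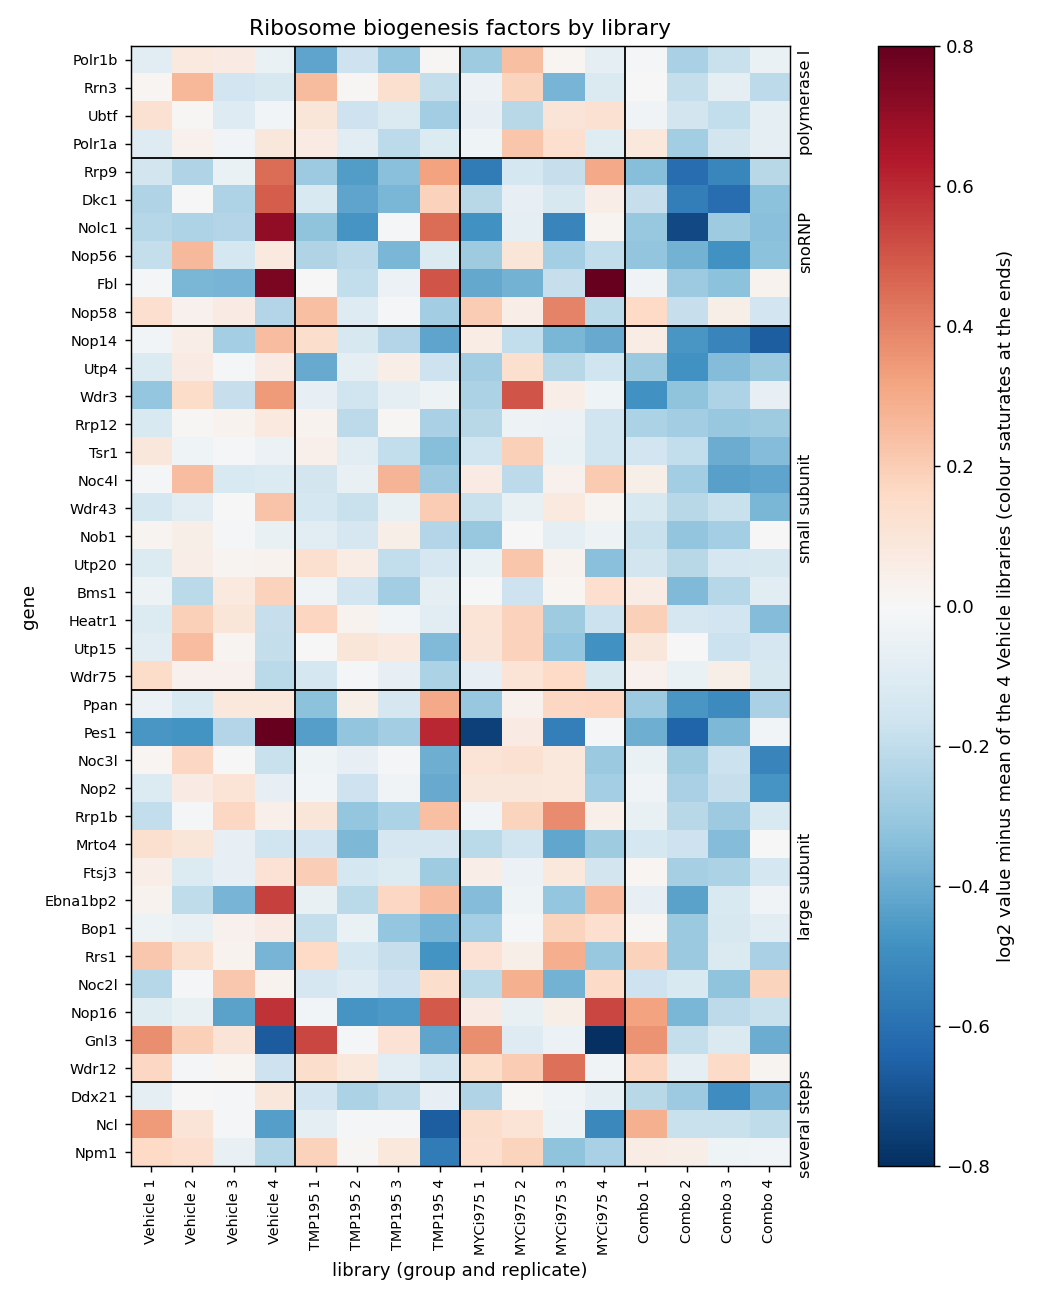
Colour shows the log2 value minus the mean of the 4 Vehicle libraries for each of the 40 factors (rows, grouped by step) in each of the 16 libraries (columns), and saturates at the ends of the scale. Combo replicates 2 to 4 are mostly on the lower side (median deviations -0.28, -0.22 and -0.17), and Combo replicate 1 is mixed (-0.03).

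Combo replicate 1 was the highest Combo library for 28 of 40 factors, lay inside the Vehicle range for 27 and was above the Vehicle mean for 16. Without it the median difference of Combo from Vehicle was -0.22, 39 of 40 factors were lower and 12 had an unadjusted p under 0.05. Without Combo replicate 2 or 3 the median was -0.13, with 6 and 5 factors at that threshold. The share of all genes at that threshold in these fits is not given here, so these counts are a description. Combo replicates 2, 3 and 4 were all below every Vehicle library for 15 of 40 factors, against 4.31% of all tested genes, a count chosen after the values were seen.

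By rank among all 16 libraries, the lowest library was a Combo library for 20 of 40 factors, against 17.4% of all tested genes. It was a TMP195 library for 11, a MYCi975 library for 8 and a Vehicle library for 1, against 30.3%, 27.8% and 24.5%. The highest library was a Vehicle library for 20, a MYCi975 library for 15, a TMP195 library for 5 and a Combo library for 0, against 29.5%, 27.0%, 26.6% and 16.9% of all tested genes. Combo had the lowest of the 4 group means for 27 factors, against 24.4% of all tested genes, TMP195 for 10 and MYCi975 for 3. The order of the group means is a description, since neighbouring groups overlapped for most factors.

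The libraries numbered 4 in Vehicle, TMP195 and MYCi975 stood apart from the rest on the first principal component of all genes, and the factors split in these libraries. Replicate 4 was the highest library in all 3 groups for 6 factors, Fbl, Dkc1, Nolc1, Rrp9, Nop16 and Ebna1bp2. It was the lowest in all 3 for 9, Nop58, Utp15, Wdr75, Tsr1, Wdr12, Noc3l, Gnl3, Rrs1 and Ncl. For Fbl, replicate 4 exceeded the mean of replicates 1 to 3 by 1.01 in Vehicle, 0.58 in TMP195, 1.34 in MYCi975 and 0.24 in Combo. For Ncl the same quantity was -0.59, -0.63, -0.58 and -0.18. Without Vehicle replicate 4, the difference of Combo from Vehicle changed sign or moved by over 1.5 times for 19 of 40 factors. Those not given above were Wdr3 (-0.28 to -0.17), Wdr43 (-0.22 to -0.15), Bms1 (-0.15 to -0.09), Heatr1 (-0.11 to -0.17), Utp15 (-0.05 to -0.12) and Wdr75 (-0.03 to -0.10) of the small subunit. The others were Rrs1 (-0.12 to -0.25), Wdr12 (0.07 to 0.01), Nop58 (-0.03 to -0.11) and Npm1 (0.01 to -0.06). In contrast, Ddx21, Nop56, Utp4, Rrp12, Ppan and Tsr1 lay between -0.35 and -0.25 without it.

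After the group means were removed, the factors varied together only weakly across libraries. The median correlation over all pairs of the 40 genes was 0.13, with 60.9% of pairs above 0, beside a median of -0.002 over all tested genes. It was 0.32 among the snoRNP proteins, 0.13 among the small subunit factors, 0.06 among the polymerase I factors and 0.03 among the large subunit factors. Among the 3 proteins of several steps it was -0.27, with 33.3% of pairs above 0. These correlations use the residuals of 16 libraries, which share the libraries numbered 4 and unknown depth, and are given as a description. Ppan, which alone among the 14 large subunit factors had no overlap between Combo and Vehicle, had the lowest median correlation with the other factors, at -0.14.

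Other genes of the pathway were looked up from a list of 134 further factors, all 134 of which were tested. In Combo 117 of 134 (87.3%) were below Vehicle, against 52.6% of all tested genes, with a median of -0.12, and 10 (7.46%) had an unadjusted p under 0.05, each lower, against 1.92%. By step the Combo medians were -0.15 for 12 snoRNP factors and -0.12 each for 44 small and 52 large subunit factors. They were -0.11 for 13 polymerase I factors and -0.10 for 13 factors of the exosome. The smallest p belonged to Rcl1, at -0.34 (SE 0.11), Surf6, at -0.39 (SE 0.13), Dhx37, at -0.47 (SE 0.16), and Utp14a, at -0.32 (SE 0.12). In TMP195 108 of 134 (80.6%, against 53.7% of all tested genes) were lower, with a median of -0.08, led by Znhit3 (-0.34), Utp14a (-0.31), Rrp7a (-0.37) and Cd3eap (-0.36). There 7 of 134 (5.22%) had an unadjusted p under 0.05, each lower, against 2.44% of tested genes lower at that threshold. For 6 of 134 all TMP195 libraries lay below all Vehicle libraries, against 1.4%. In MYCi975 93 of 134 (69.4%, against 52.9%) were lower, with a median of -0.05, and the smallest p belonged to Riok1 (-0.23), Nip7 (-0.26), Mdn1 (0.38) and Exosc3 (-0.24). None of the 134 passed the adjusted test of limma in any comparison.

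The same list was set against the other comparisons. Combo against MYCi975 had a median of -0.10 with 101 of 134 lower (75.4%, against 49.8% of all tested genes), and the smallest p belonged to Pwp2 (-0.34), Riok1 (0.27), Nol8 (-0.30) and Rcl1 (-0.24). Combo against TMP195 had a median of -0.03 with 85 of 134 lower (63.4%, against 49.3%), and its smallest p belonged to Nop9 (-0.29), Pwp2 (-0.23), Diexf (0.29) and C1d (0.28). The interaction had a median of 0.01 with 61 of 134 below 0 (45.5%, near the 48.2% of all tested genes), and Mdn1, the AAA ATPase that strips factors from pre-60S particles, had the smallest p at -0.75.

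Myc, whose product MYCi975 targets, did not itself differ beyond its spread. It had 12.06, 11.77, 11.71 and 11.46 in Vehicle, 12.04, 12.02, 11.60 and 11.67 in TMP195, 11.90, 11.36, 11.64 and 11.26 in MYCi975 and 12.17, 11.07, 11.22 and 11.56 in Combo. The differences from Vehicle were 0.08, -0.21 and -0.24, with an SE of 0.21. Its partner Max had 10.72, 10.69, 10.71 and 10.40 in Vehicle and 10.83, 10.44, 10.66 and 10.55 in Combo, and its differences were -0.04 for TMP195, -0.05 for MYCi975 and -0.01 for Combo (SE 0.12). Within Combo, replicate 1 had both the highest Myc value and the highest mean of the factors, whereas in Vehicle the library with the lowest Myc value, replicate 4, had the highest mean. These are values of mRNA, and the activity of the MYC protein was not measured.

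**Figure D5:**
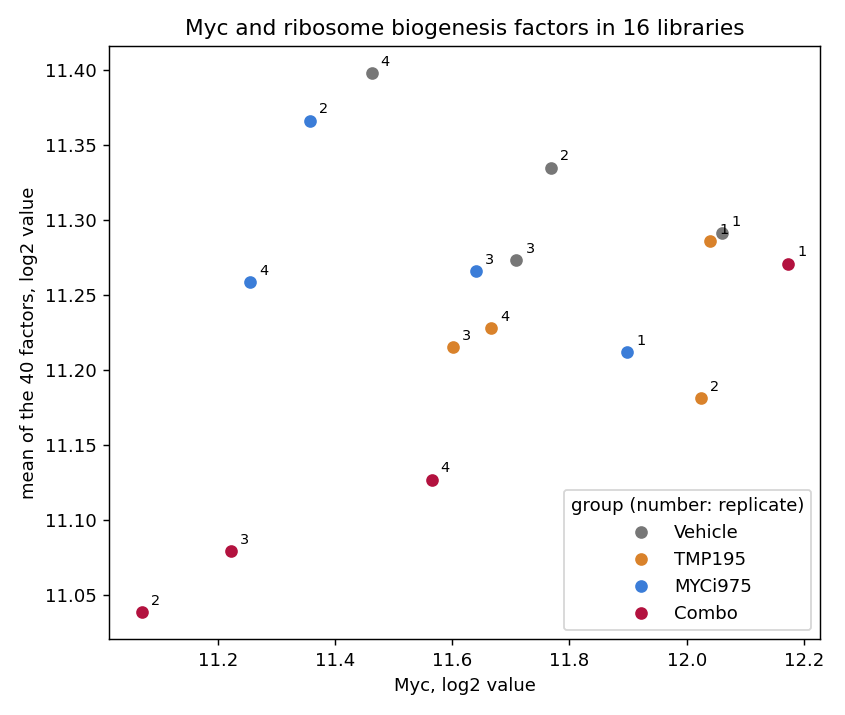
Log2 value of Myc (x axis) against the mean log2 value of the 40 factors (y axis) in each of the 16 libraries, coloured by group. Combo replicates 2 to 4 have the lowest factor means (11.04, 11.08 and 11.13), and Vehicle replicate 4 has the highest (11.40) at a Myc value of 11.46.

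The factors were then divided by the E-box in the searched window. In Combo the 7 with CACGTG had a median of -0.24, from -0.36 to -0.12, and the 28 without had a median of -0.16, from -0.42 to 0.07. The 8 with CACGCG had a median of -0.23. In MYCi975 the medians were -0.05 with and -0.03 without CACGTG. The ranges overlapped throughout, and the split was not tested.

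Markers of several cell types were measured beside these results. Of the epithelial list Krt8, Krt18 and Krt19 passed the requirement on low values, and Epcam and Cdh1 did not. Of the leukocyte list 7 of 9 passed, and their mean ran from 7.0 to 7.51 in Vehicle, from 7.30 to 8.73 in TMP195, from 6.85 to 7.91 in MYCi975 and from 6.86 to 7.41 in Combo. The fibroblast list passed in 6 of 6, and its library means were 10.68 to 11.12 for Vehicle, 10.53 to 11.14 for TMP195, 10.19 to 11.25 for MYCi975 and 10.96 to 11.43 for Combo. In Combo 5 of 6 fibroblast markers were above Vehicle (median 0.35) and 6 of 6 were above MYCi975 (median 0.16). Whether fibroblasts or the tumour cells held these transcripts was not tested. Of the neutrophil list 4 of 5 passed, with library means of 6.17 to 6.72 for Vehicle, 6.70 to 7.59 for TMP195, 6.13 to 8.68 for MYCi975 and 6.01 to 6.83 for Combo, and of the macrophage list 4 of 8, with 6.47 to 6.83 for Vehicle, 6.72 to 7.54 for TMP195, 6.44 to 6.72 for MYCi975 and 6.44 to 6.57 for Combo. In TMP195 all 4 of each were above Vehicle, with medians of 0.68 for neutrophil and 0.53 for macrophage markers, and 6 of 7 leukocyte markers were (median 0.76). In MYCi975 all 4 neutrophil markers were above Vehicle (median 0.50), and MYCi975 replicate 3 was the highest library for each. It had 8.32, 10.31, 7.93 and 8.16 for S100a8, S100a9, Csf3r and Cxcr2. The other MYCi975 libraries had at most 6.93, 7.36, 6.80 and 6.93. None of 3 B cell markers passed the requirement. The part of these cells in the results was not tested beyond the following fits. With the leukocyte mean as a covariate the median difference of the 40 factors was -0.16 in Combo and -0.12 in TMP195.

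Genes of cell proliferation also had lower group means in the treated groups, with libraries that overlapped. Of a list of 16, all 16 were below Vehicle in TMP195 (median -0.26) and in MYCi975 (median -0.13), and 15 in Combo (median -0.14), without any passing the adjusted test. Of all tested genes 53.7%, 52.9% and 52.6% were below Vehicle in these 3 groups. The mean of the list was 11.31, 11.65, 11.26 and 11.72 in Vehicle replicates 1 to 4. It lay between 11.18 and 11.40 in Combo libraries, 11.07 and 11.44 in TMP195, and 11.17 and 11.61 in MYCi975. Vehicle replicates 1 and 3 thus lay inside the range of each treated group, and Vehicle replicates 2 and 4 lay above it. With the mean of the list as a covariate the median difference of the 40 factors was -0.15 in Combo, with 38 of 40 lower, and -0.07 in TMP195, with 27 of 40 lower. The snoRNP median in Combo was then -0.26 in place of -0.39.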

How the data were processed

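RNA of enriched LLC1 tumour cells was purified on spin columns and made into libraries with a stranded total RNA kit, per the labels' protocols. The authors deposited 1 table of 24334 genes and 16 libraries, whose values are variance-stabilised and read here as log2 values. Salmon was used and the genome build named is hg38, per the submitters' processing notes, although samples and identifiers are mouse; the tool of the variance stabilisation is not given in the sources used here. Total counts are unknown, and 1960 to 3130 genes per library sat at the lowest value, 4.84. Symbols came from a table of gene names and matched 23150 identifiers (95.13%).

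Genes at least 1 above the lowest value in 4 or more libraries were fitted with limma 3.58.1 in R 4.3.3, with 1 mean per group, empirical Bayes moderation and an intensity trend, and the scripts were tested on simulated data. Two-sided p-values were adjusted over all 15715 genes within each of 6 comparisons. Calls needed an adjusted p under 0.05, with no p adjusted over the factors alone. Values in every library are given for the 2 factors of each step with the smallest p in Combo against Vehicle, those whose 4 Combo and 4 Vehicle libraries do not overlap, the 3 with the smallest p in each other comparison, the 2 furthest in the opposite direction, and Myc and Max; others are named after their values were seen. Up to 4 other factors per comparison are named by p. The members, lists and tests were chosen with earlier results of these data known. Alternatives changed the filter, trend, moderation, scaling, weights, covariates and libraries used.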

Additional observations from a re-analysis of the deposited data

Results flagged for a closer look

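Within each group of 4 libraries, values of 24 genes (96 groups in all) were checked for a single library that lay far from the other 3, by the size of its gap relative to the range of the group. Chance alone gives about 1 such group in 20, and 9 of 96 were found. Fbl was at 11.1 in MYCi975 replicate 4, while the other 3 MYCi975 libraries lay between 9.63 and 9.86. Mrto4 was at 9.66 in TMP195 replicate 2, beside 9.87 to 9.89. Ncl was at 14.97 in TMP195 replicate 4, beside 15.55 to 15.62, and at 15.9 in Combo replicate 1, beside 15.42 to 15.45. Noc3l was at 11.3 in TMP195 replicate 4, beside 11.59 to 11.63, and at 11.4 in MYCi975 replicate 4, beside 11.73 to 11.77. Nolc1 was at 12.3 in Vehicle replicate 4, beside 11.35 to 11.37, and at 10.9 in Combo replicate 2, beside 11.27 to 11.32. Max was at 10.4 in Vehicle replicate 4, beside 10.69 to 10.72. Of these 9 values, 6 belonged to a library numbered 4.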

How the results depend on the processing

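No factor was called under any of 29 other settings. Over all genes, Combo against TMP195 gave 65 calls with library quality weights, 1 without the intensity trend and 1 without TMP195 replicate 1 and MYCi975 replicate 3; Combo against Vehicle gave 1 with the compared groups alone. Leaving out 1 library gave 0 to 2 calls in TMP195 against Vehicle and in Combo against TMP195, and 0 to 1 in MYCi975 against Vehicle and in Combo against MYCi975. The median of the 40 factors then ran from -0.22 to -0.13 in Combo and from -0.12 to -0.026 in MYCi975 against Vehicle. After quantile normalisation these medians were -0.12 in Combo and 0.01 in MYCi975. The replicate number as a block left 0 factors and 0 genes called in every comparison. At an unadjusted p under 0.05 it gave 13 in place of 9 factors in Combo against Vehicle and 10 in place of 5 against MYCi975. With library quality weights these were 15 and 11. Counts over all genes rose too with weights, to 1296 in place of 642 in Combo against Vehicle and 565 in place of 365 against MYCi975. A rise with weights was thus not particular to the factors. With the block the counts over all genes were 991 in place of 767 in TMP195 against Vehicle. They were 621 in place of 476 in MYCi975 against Vehicle. The counts over all genes with the block are not given here for Combo, so the 13 and 10 factors are a description. The deviations of same-numbered libraries had a median r of 0.19, against -0.04 for other numbers, and 9 of 16 libraries correlated best with their own number. All 6 pairs numbered 1 and all 6 numbered 4 were over 0.1, but only 2 of 6 numbered 2 and 1 of 6 numbered 3; taking the numbers as pairs required every pair, so they were not. Leaving out 1 Combo or Vehicle library reversed the Combo difference of 10 of 40 factors (Ebna1bp2, Fbl, Gnl3, Ncl, Nop16, Nop58, Npm1, Pes1, Utp15 and Wdr75). For the 33 differences chosen by the naming rule, 17 of 954 values under alternatives reversed, in 4 of the 33, none of them called. Leaving out 1 library moved Fbl in TMP195 between -0.083 (without TMP195 replicate 4) and 0.31, with values below 0 also without Vehicle replicate 2 or 3. Gnl3 in TMP195 was at -0.080 with weights, -0.0023 with the leukocyte covariate, -0.17 with the proliferation covariate and without Vehicle replicate 4, -0.10 without TMP195 replicate 1 (alone or with MYCi975 replicate 3), -0.0063 without all libraries numbered 4 and up to 0.22 without TMP195 replicate 4. Ncl in Combo was at 0.032 after quantile normalisation and 0.044 without Vehicle replicate 1. Npm1 in Combo was at -0.055 with weights, 0.066 without Vehicle replicate 1, -0.064 without Vehicle replicate 4, -0.0081 without Vehicle replicate 3, -0.0024 without Combo replicate 1 and -0.053 without all libraries numbered 4; the cause was not tested. The compared groups alone were not run for the interaction. Depth is unknown, and with 4 libraries a group differences much under the median half-width of 0.27 could not be told from the spread.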
